A study of Mus musculus with 2 samples.

Results

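The genes described here build, cap and anchor the actin network under the cell membrane. They are 40 genes, chosen by name as actin crosslinkers, filament end cappers, coronins, MICAL oxidases, membrane linkers, actin monomer binders and members of the spectrin and adducin skeleton. They were read in RNA of cerebral cortex from newborn mice, and a member was taken from the array only through probe sets that the platform annotation gives to that gene alone. Of the 40, 39 had such a probe set, as did 18194 genes in all. In total 37 members were measured, meaning that at least 1 of the arrays read a signal of 178.9 or more. That value, the 50th percentile of the signals of all probe sets, is called the floor, and a probe set that reached it on each array is called bright. Tmod1 and Mical1 stayed under that floor on both arrays, and all 3 probe sets of Twf1 were also assigned to a gene named Gm4887.

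The study compared 2 Affymetrix arrays, each hybridised with RNA pooled from the cortex of 3 mice labelled as postnatal day 0. Both pools carried null alleles of Mrtfa and floxed alleles of Mrtfb, written MRTFA-/-;MRTF-BFlox/Flox for the control pool and MRTF-A-/-;MRTF-BF/F;GFAP-Cre for the double knockout pool. The control pool had no Cre, and the double knockout pool also carried GFAP-Cre, so the controls were themselves Mrtfa nulls. Cre driven by a GFAP promoter, which in the developing cortex is active in radial glia and the cells that arise from them, would leave Mrtfb in cells of other origin such as microglia and blood vessels. The free-text description of the double knockout sample gives postnatal day 1 in place of day 0. Each pool was read once, so every difference below has no replicate check, no test was made, and the 3 animals of a pool cannot be told apart.

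Actin filaments have a fast-growing barbed end and a slow pointed end, and the cell sets their length and arrangement by capping those ends, by crosslinking filaments into bundles and meshes, and by tying them to the membrane through spectrin, adducin and the ezrin family. MRTF-A and MRTF-B sense this system: they bind monomeric actin, and when monomers are used up they enter the nucleus and activate SRF, whose targets include many genes of the cytoskeleton. In the cortex these proteins shape growth cones, dendritic spines and the processes of migrating neurons.

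Each difference given is the log2 signal of the double knockout pool less that of the control pool, and where a gene has several probe sets, its value is that of the probe set with the highest mean signal. Mrtfb itself read 3359 in the control pool and 2482 in the double knockout pool, a difference of -0.44, and its second bright probe set differed by -0.22. Mrtfa, labelled null in both pools, read 601.6 and 262.4, a difference of -1.20. The pools thus differed in a gene whose label is the same in both, and the pools are named below as their labels name them. Srf read 582.3 and 471.1, a difference of -0.31, and Myocd was under the floor on both arrays. Whether the Mrtfa and Mrtfb probe sets lie inside the deleted parts was not given in the sources used here. Of 8 measured cortical markers 5 were higher and 3 lower, with a median difference of 0.05. Neurod6 read 4572 and 4738 and Tbr1 1553 and 1720, while Slc17a7 read 4498 and 3080 (-0.55) and Emx2 425 and 311 (-0.45). Markers of other cells and regions were read in the same pools. In the double knockout pool 11 of 11 measured meningeal genes (median 0.23) and 8 of 12 microglial genes (median 0.23) were higher. Lower were 9 of 10 striatal genes (median -0.28), 7 of 8 oligodendrocyte genes (median -0.38) and 6 of 10 endothelial genes (median -0.10). Of all measured genes 52.9% were higher and 47.1% lower. The marker lists were chosen with earlier results of these data known, so these counts are description only. In such bulk RNA, fewer cells of a type and less RNA per cell cannot be told apart.

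SRF binds a short motif, the CArG box, made of a CC pair, 6 bases that are each A or T, and a GG pair. The box reads the same on either strand, so a search covers both. RefSeq promoter windows of mouse build GRCm38.p6, 250 bases before to 50 after each listed start, were at hand for 36 of the 40 members in 50 windows. The exact box was found in 0 of these 50 windows and in 1.63% of all 32851 windows. With 1 mismatch allowed it was found in 7 of the 50 (14.0%), against 21.1% of all windows. The 7 members were Coro2a, Flnc, Rdx, Mical1, Add3, Flna and Pls3. The stretches shown here are those of the 3 members that differed most between the pools, Flnc, Mical2 and Mical3, after that of Srf, which carries exact boxes and shows what the search looks for. Capitals mark the box, exact for Srf and with 1 mismatch for Flnc. The stretches of Mical2 and Mical3 run over the 150 bases before the start and hold no match.
Srf, chr17:46556195-46556264, minus strand: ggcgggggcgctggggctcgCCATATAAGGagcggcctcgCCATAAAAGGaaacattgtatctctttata
Flnc, chr6:29432945-29433044, plus strand: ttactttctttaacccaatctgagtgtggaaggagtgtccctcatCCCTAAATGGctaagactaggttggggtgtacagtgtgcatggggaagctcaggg
Mical2, chr7:112225686-112225835, plus strand: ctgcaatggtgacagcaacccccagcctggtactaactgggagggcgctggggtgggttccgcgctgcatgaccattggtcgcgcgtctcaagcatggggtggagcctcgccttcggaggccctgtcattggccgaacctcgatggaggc
Mical3, chr6:121131023-121131172, minus strand: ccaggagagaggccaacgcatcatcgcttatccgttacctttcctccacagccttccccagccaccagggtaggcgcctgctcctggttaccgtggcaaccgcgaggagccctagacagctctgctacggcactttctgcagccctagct
The start used for each is the most upstream of those RefSeq lists, of which Flnc and Mical3 have 2 each. A match is a run of letters and not a measured binding site, and a window without a match leaves the rest of the gene unsearched.

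The list as a whole lay close to no difference. Of the 37 measured members 21 were lower and 16 higher in the double knockout pool, with a median of -0.02, beside 47.1% lower, 52.9% higher and a median of 0.01 over all 11636 measured genes. In all, 18 of the 37 (48.6%) lay within 0.1 log2 of no difference, as did 48.4% of all genes. A member was counted as different when it was at least 20% lower or at least 25% higher, which is 0.32 log2 either way. Flnc and Mical2 were lower by that much, 2 of 37 or 5.41%, and 5.55% of all genes were. Mical3 alone was higher by that much, 1 of 37 or 2.70%, against 3.45% of all genes. Both shares were near the background, and no member passed 1.5-fold.

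**Figure D1:**
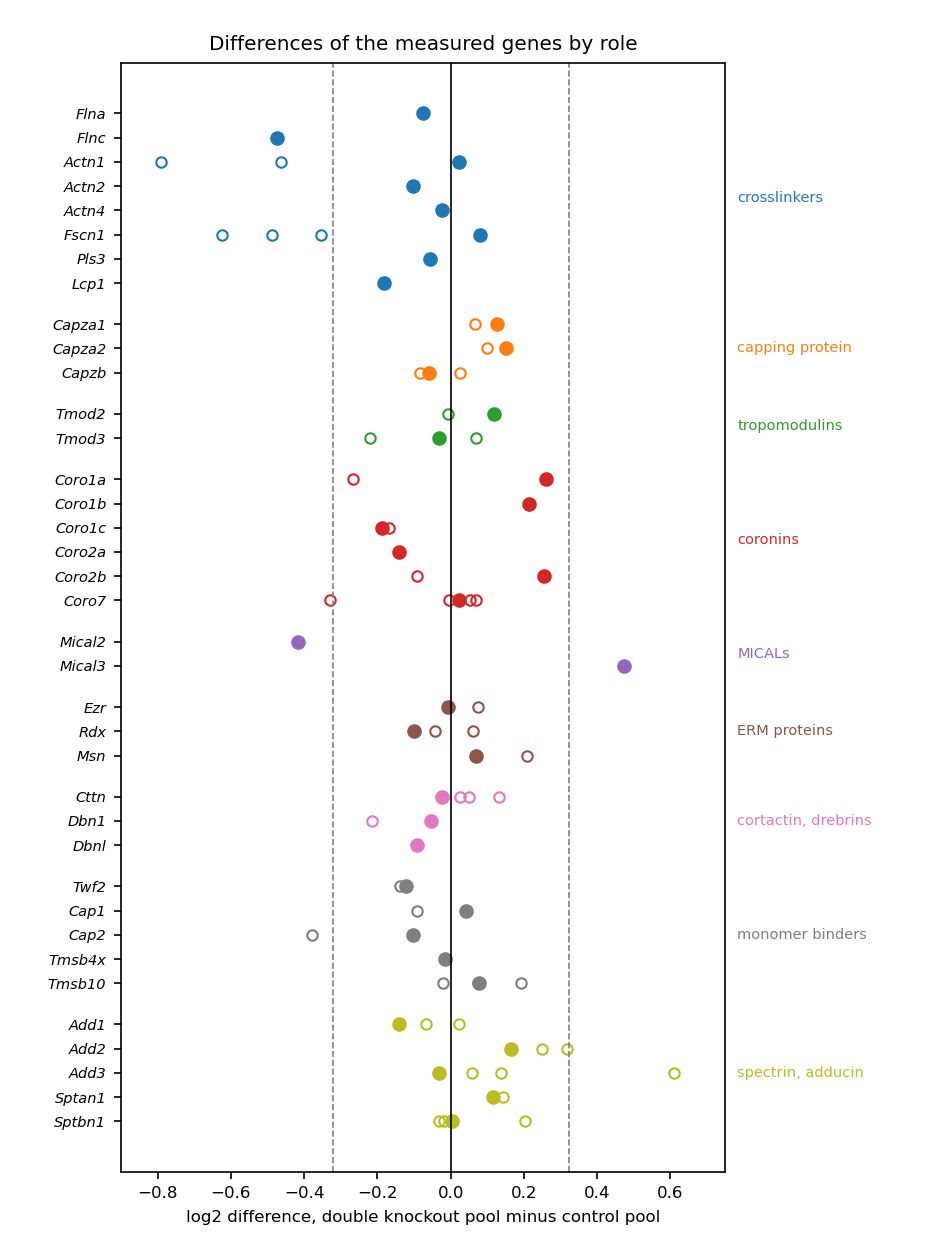
Log2 difference (double knockout less control, x axis) of the 37 measured genes, grouped by role. Filled points are the brightest probe set of a gene, open points its other bright probe sets, and dashed lines mark 0.32 log2 either way. Only Flnc, Mical2 and Mical3 have filled points outside the lines, while Actn1 and Fscn1 have open points far to the left of their filled ones.

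The MICAL enzymes, which oxidise methionines of actin and so take filaments apart, included the highest value of any member, Mical3, and the lowest but for Flnc, Mical2. Mical2, the nuclear member known to promote MRTF-SRF transcription, read 776 in the control pool and 583 in the double knockout pool, a difference of -0.42 or 1.33-fold lower. Mical3, which also acts in vesicle docking, read 626 and 871, a difference of 0.47 or 1.39-fold higher. The control pool was thus the brighter for Mical2 and the dimmer for Mical3. Each value rests on a single probe set, since the other probe set of Mical2 read 93.0 and 44.4 and a probe set shared by Mical3 and Gm43915 read 81.2 and 66.1, all under the floor. Of all measured genes 2.77% were at least as far below as Mical2 and 0.963% at least as far above as Mical3. Mical1, the third enzyme of the family, read 150.4 and 170.3 on one probe set and 160.0 and 129.1 on the other.

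Among the crosslinkers, 6 of 8 members were lower on their brightest probe set and 2 higher, with a median of -0.07. Of all measured genes 47.1% were lower, and among the crosslinkers only Flnc passed the threshold on that probe set. The filamins are long hinged dimers that crosslink actin into meshes and tie it to membrane receptors. Flna, the filamin whose human gene is mutated in periventricular heterotopia, read 1130 in the control pool and 1075 in the double knockout pool, a difference of -0.08. Flnc, the filamin of muscle, read 328 and 236, a difference of -0.47 or 1.39-fold lower. That value was dim and came from a probe set whose suffix marks possible cross-hybridisation, and the second Flnc probe set was under the floor at 21.3 and 25.9. Of 8 muscle markers only 2 were measured, both lower in the double knockout pool. Ckm read 260.4 and 183.9 (-0.51), the latter close to the floor, and Acta1 differed by -0.25, inside the threshold. Their summed signals were 675.9 and 534.1. The other 6, among them Myh3, Tnnt3 and Mylpf, were under the floor. Of 9 mural markers 6 were measured, 3 of them higher, with summed signals of 7364 and 8146, and Tagln, Myh11 and Cnn1 were under the floor. The part of such cells in the Flnc value was not tested.

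The alpha-actinins crosslink filaments as antiparallel dimers. Actn4 read 2565 and 2528, a difference of -0.02, and Actn2, the isoform of muscle and dendritic spines, read 458 and 428, a difference of -0.10. Actn1 gave values that depended on the probe set. Its brightest read 2263 in the control pool and 2306 in the double knockout pool, a difference of 0.02. Its other probe sets were lower, from 467 to 271 (-0.79) and from 419 to 305 (-0.46). The mean over the Actn1 probe sets was -0.41 ± 0.41 (SD, 3 probe sets), past the threshold where the brightest alone was not.

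Fascin, Fscn1, packs filaments into the tight bundles of growth cone filopodia. Its brightest probe set read 9029 in the control pool and 9576 in the double knockout pool, a difference of 0.08. The other 3 were all lower in the double knockout pool, from 3174 to 2065 (-0.62), from 1470 to 1153 (-0.35) and from 638 to 456 (-0.49). The mean over the Fscn1 probe sets was -0.35 ± 0.31 (SD, 4 probe sets), again past the threshold where the brightest alone was not. The plastins are bundlers too. Pls3, T-plastin, read 3342 and 3221, a difference of -0.06. Lcp1, the L-plastin of leukocytes, read 235.3 and 208.1, a difference of -0.18 close to the floor. Among 12 measured microglial genes 8 were higher in the double knockout pool and 4 lower, where 52.9% of all genes were higher. The part of such cells in the Lcp1 value was not tested.

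**Figure D2:**
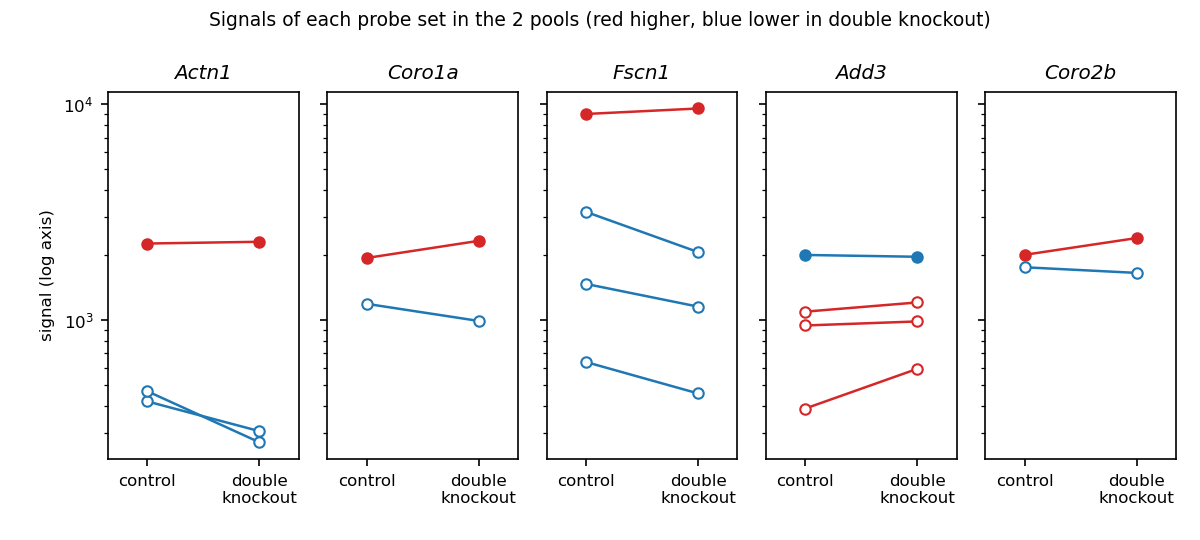
Signals (log axis) in the control and the double knockout pool of each bright probe set, for the 5 members whose probe sets spread most. Filled points are the brightest probe set, red lines are higher and blue lines lower in the double knockout pool. For Actn1 and Fscn1 the brightest probe set is flat to slightly higher and every other probe set is lower, and for Add3 the order is turned.

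Capping protein, a heterodimer of an alpha and a beta subunit, closes the barbed end. Both alpha subunits were higher in the double knockout pool on each of their probe sets. Capza1 read 2036 and 2230 on the brightest, a difference of 0.13, and its other probe set differed by 0.07. Capza2 read 5355 and 5957, a difference of 0.15, and 3958 and 4253 on its other probe set, a difference of 0.10. The beta subunit Capzb read 4011 and 3857, a difference of -0.06, with its 3 probe sets between -0.08 and 0.03. All of these lay inside the threshold. Tropomodulins close the pointed end together with tropomyosin. Tmod2, the neuronal tropomodulin, read 4232 and 4607, a difference of 0.12, but 1065 and 1061 on its second bright probe set, a difference of -0.01. A dim Tmod2 probe set read 201.0 and 152.5, the latter under the floor, and the other 3 were under the floor in both pools. Tmod3, the widely expressed form, differed by -0.03, with its 3 probe sets between -0.22 and 0.07. Tmod1, the form of muscle and red cells, read 177.5 and 174.3, just under the floor.

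Coronins bind the sides of filaments and work with the Arp2/3 complex and cofilin in turnover of the network. On their brightest probe sets 2 of 6 were lower and 4 higher, and the median difference was 0.12. Of all measured genes 52.9% were higher, and no coronin passed the threshold on its brightest probe set. Coro1b read 593 in the control pool and 690 in the double knockout pool, a difference of 0.21 on its only probe set. Coro1c read 1134 and 999, a difference of -0.19, and its second bright probe set differed by -0.17. Coro2a read 674 and 613, a difference of -0.14 on its only probe set. Coro1b and Coro1c are thus close relatives with values in opposite directions, neither past the threshold.

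The remaining coronins had probe sets that went both ways. Coro1a, the coronin of leukocytes and neurons, was higher on one probe set, from 1939 to 2329 (0.26), and lower on the other, from 1188 to 990 (-0.27), with a mean of -0.0035 ± 0.37 (SD, 2 probe sets). Another was under the floor at 67.2 and 50.1. Of 12 measured microglial markers, 8 were higher in the double knockout pool and 4 lower, among them P2ry12 at -0.37. Their summed signals were 7908 and 8695, and Ptprc, Itgam and Trem2 were under the floor. Of 9 lymphoid and granulocyte markers only Ms4a1 was measured, at 222.1 and 181.0. The part of such cells in the Coro1a values was not tested. Coro2b, a coronin of the nervous system, read 2006 and 2399 on its brightest probe set (0.25) and 1756 and 1653 on the other (-0.09). The brightest Coro2b probe set carries the suffix for possible cross-hybridisation. Coro7, the coronin of the Golgi, read 1656 and 1688, a difference of 0.02, with its 5 probe sets between -0.33 and 0.07.

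Ezrin, radixin and moesin link filaments to membrane proteins. Ezr read 873 and 872, a difference of -0.01, and Rdx read 1350 and 1263, a difference of -0.10. The other Rdx probe sets read 1163 and 1216 (0.06) and 815 and 794 (-0.04), so the gene had no single direction. Msn read 854 and 899, a difference of 0.07, and 247 and 286 on a second probe set, a difference of 0.21. Msn was thus the only one of the 3 with every probe set in a single direction. Cortactin, Cttn, stabilises the branches that the Arp2/3 complex makes, and read 3926 and 3876, a difference of -0.02, with its 4 probe sets between -0.02 and 0.13. Drebrin, Dbn1, which stiffens filaments in dendritic spines and growth cones, read 3797 and 3669, a difference of -0.05, and 1290 and 1114 on a second probe set, a difference of -0.21. The drebrin-like protein Dbnl read 1340 and 1261, a difference of -0.09.

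The 5 measured genes whose proteins hold actin monomers, which keep the MRTFs inactive, lay between -0.12 and 0.08 on their brightest probe sets. Thymosin beta 4, Tmsb4x, which sequesters monomers, read 13009 in the control pool and 12914 in the double knockout pool, a difference of -0.01. Its relative Tmsb10 read 11326 and 11987, a difference of 0.08, with its 4 probe sets between -0.02 and 0.19. The cyclase-associated proteins recharge monomers with ATP. Cap1 read 587 and 606, a difference of 0.04, and -0.09 on its second probe set. Cap2 read 903 and 843, a difference of -0.10, and 624 and 482 on its second probe set, a difference of -0.38. Twf2, a twinfilin that binds monomers and caps barbed ends, read 1560 and 1436, a difference of -0.12, and 471 and 429 on its second probe set, a difference of -0.14. The 3 probe sets shared by Twf1 and Gm4887 differed by 0.06, 0.16 and -0.08 and give no value to Twf1.

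Spectrin tetramers and the adducins that cap filaments at their nodes form the lattice under the membrane of axons. Sptan1, the alpha spectrin of cells other than red cells, read 6706 and 7288, a difference of 0.12, and 0.14 on its second probe set. Its partner Sptbn1 read 10849 and 10900, a difference of 0.0030, with 4 probe sets between -0.03 and 0.20. The adducins had values of both signs. Add1 read 3704 and 3367, a difference of -0.14, and Add3 read 2003 and 1964, a difference of -0.03. Add2, the beta adducin of neurons and red cells, read 2261 and 2539, a difference of 0.16, on the brightest probe set. Its other bright probe sets read 371 and 442 (0.25) and 191.0 and 238.5 (0.32), so all 3 were higher, with a mean of 0.24 ± 0.08 (SD). A further one read 186.9 in the control pool and 123.1, under the floor, in the double knockout pool, and the last was under the floor at 166.0 and 162.4. A dim probe set of Add3, which carries the suffix for possible cross-hybridisation, read 388 and 594, a difference of 0.61, against -0.03 to 0.14 for the other 3. None of the red cell markers Hba-a1, Alas2, Slc4a1 and Epb42 reached the floor on either array.

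Probe sets of the same gene often differed in sign, for the members as for the array. Of the 25 members with several bright probe sets, 16 (64.0%) had values in both directions, against 56.9% of 4858 such genes. The members with every probe set lower were Coro1c, Dbn1, Twf2 and Cap2, 4 of 25, against 20.8% of the 4858. Those with every probe set higher were Capza1, Capza2, Msn, Add2 and Sptan1, 5 of 25, against 22.3%. The SD between probe sets of a gene, pooled over genes, was 0.18 log2 both for the members and for all genes. The differences of 29 of the 37 members were smaller than that spread, and those of 8 were not. No like count was made over all genes, so this count shows nothing particular to the members. The SD of the differences of all genes above the floor on both arrays was 0.19.

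At the level of probe sets, 81 of the 104 that name a member were bright, 43 of them lower and 38 higher, where 49.1% of all bright probe sets were lower. Of the 81, 9 (11.1%) were at least 20% lower, against 6.07% of all 18877 such probe sets, and 2 (2.47%) were at least 25% higher, against 3.37%. The 9 came from 6 genes, and 5 of them belonged to Actn1 and Fscn1, whose probe sets share a target and are not independent. Without those genes, a step chosen after the values were seen, 5.41% of 74 probe sets were that much lower. Relative to probe sets of like brightness, 8 of 81 (9.88%) lay outside the central 95% of differences, where 5.09% of all probe sets lay. These were 3 probe sets of Fscn1 and single ones of Actn1 and Mical2 on the lower side, and single ones of Mical3, Add2 and Add3 on the higher side. The Flnc value lay inside that range, which ran from -0.57 to 0.48 at its brightness. The Add2 probe set lay in the dimmest of 20 bins of brightness. The range there, -0.39 to 0.29, was narrower than the -0.57 to 0.45 of the next bin.

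**Figure D3:**
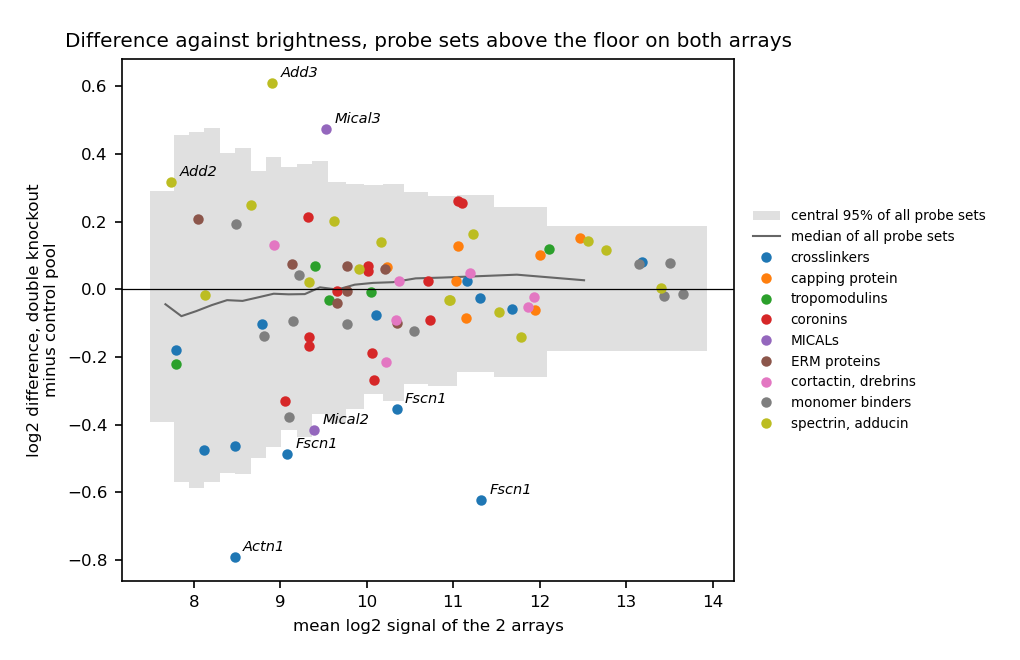
Log2 difference (double knockout less control) against the mean log2 signal of the 2 arrays for the 81 bright member probe sets, coloured by role. The grey band holds the central 95% of all 18877 such probe sets in 20 bins of brightness and the line is their median. Members outside the band are named, 5 below it and 3 above.

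The nearest relatives of these genes were described in the same way. Of 50 further genes of the same families and of the membrane skeleton, 29 were measured. In the double knockout pool 16 of them were lower and 13 higher, and their median difference was -0.04. At least 20% lower were Pls1, the intestinal plastin, from 259 to 195.5 (-0.41), and Eps8, a barbed end capper and bundler of filopodia, from 1075 to 845 (-0.35). These are 2 of 29, against 5.55% of all genes. Eps8 was lower on each of its 3 probe sets, at -0.35, -0.31 and -0.23. Svil, the membrane-bound supervillin, was at least 25% higher, from 812 to 1024 (0.33), and its second probe set differed by 0.14. This is 1 of 29, against 3.45% of all genes. The ankyrins and Epb41-like proteins that tie spectrin to the membrane lay between -0.12 (Epb41l3) and 0.16 (Ank3) on their brightest probe sets. Other bright probe sets of Epb41l1, Epb41l2 and Ank3 reached -0.29, -0.27 and -0.24, and none of these families lay above 0.16. The mean over the 6 Ank3 probe sets was -0.01. In the coronin and MICAL families Coro6 differed by -0.21 with only the control pool above the floor, Micall1 by 0.03, and Msrb1, the reductase that reverses the action of MICALs on actin, read 1256 and 1087, a difference of -0.21.

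The values past the threshold were recomputed under other ways of processing the signals. Mical3 lay between 0.38 and 0.48 and Mical2 between -0.42 and -0.33 under 9 alternatives, past the threshold in each. Not all 9 are separate checks, since each gene has a single bright probe set, without a suffix for possible cross-hybridisation. The 25th percentile floor, no floor, the mean over probe sets and leaving out the suffixes returned the reported values, 0.47 and -0.42. Flnc lay between -0.47 and -0.29 under the 7 alternatives in which it was measured. Taking the mean over measured probe sets added Actn1 and Fscn1 to the lower members, making 4 of 37, where 4.98% of all genes were that much lower.

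**Figure D4:**
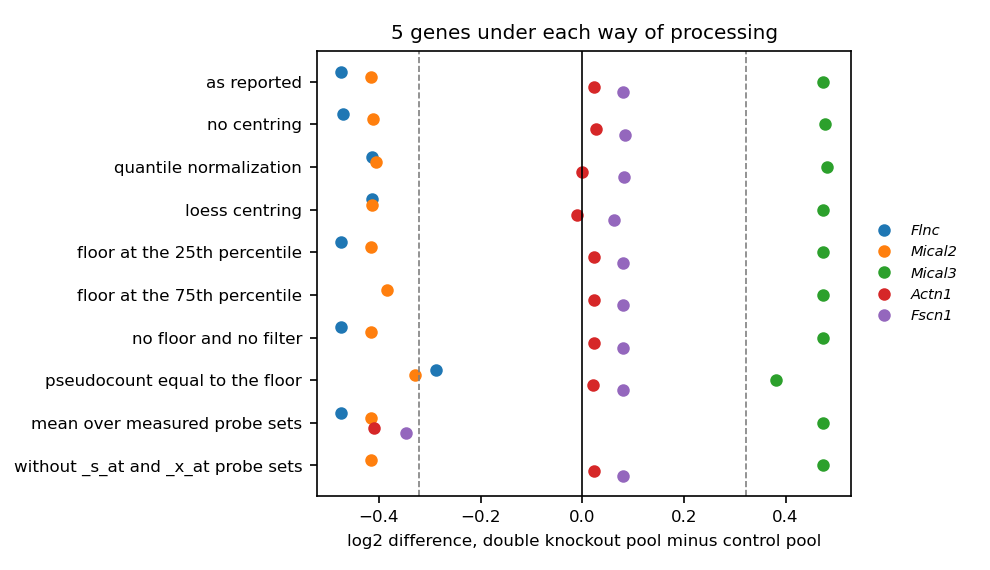
Log2 difference (double knockout less control) of 5 members under the reported processing and 9 alternatives. Dashed lines mark 0.32 log2 either way. Mical3 stays to the right and Mical2 to the left of the lines, while Actn1 and Fscn1 cross to the left only with the mean over probe sets, and Flnc has no point where its probe set was dropped or under the floor.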

How the data were processed

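The measurements are 2 Affymetrix arrays of pooled cortical RNA, 1 per group. The authors deposited intensity signals on a linear scale, made with MAS5 per the submitters' processing notes; its version and target scaling were not stated there. Each array has 45101 probe sets and a 2% trimmed mean of 500.002. Per the labels' protocols, 6 ug of total RNA was used. Probe sets were named from platform annotation: 34945 name 1 gene, 932 several and 9160 none, beside 64 control probe sets.

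Signals were centred by 0.0037 log2 on the median difference of bright probe sets, set to the floor of 178.9 where below it, and subtracted on the log2 scale (Python 3.11.15, numpy 2.4.6, pandas 2.3.3, statsmodels 0.14.6, matplotlib 3.10.9). Printed signals are as deposited. The code was tested on simulated data. With 1 array per group no test was possible, and the SD printed covers probe sets of a gene, not animals. The members, roles, relatives and marker lists were chosen with earlier results of these data known. Every member is accounted for, with every probe set given for those past the threshold and for the farthest member of each role. The number of arrays limits the precision. Alternatives tried were no centring, quantile normalization, loess centring (span 0.3), floors at the 25th and 75th percentile, no floor, a pseudocount equal to the floor, the mean over measured probe sets, leaving out probe sets with the suffixes s_at and x_at, and a threshold of 1.5-fold.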

Additional observations from a re-analysis of the deposited data

How the results depend on the processing

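No paired analysis was possible because each group is 1 pooled sample. Across the 9 alternatives to the signals the median over members stayed between -0.03 and -0.01. In all, 26 of 37 members kept their sign under each alternative in which they were measured, while 11 did not. No like count was made over all genes. A member with 1 measured probe set keeps its value under the mean over probe sets, so that count is in part fixed beforehand. Of 328 member values, 6 moved by more than the pooled SD between probe sets of 0.18 log2: Actn1 (-0.41), Fscn1 (-0.35), Coro1a (-0.0035) and Add3 (0.19) with the mean over probe sets, Coro2b (-0.09) without the suffixes s_at and x_at, and Flnc (-0.29) with the pseudocount. The count of members at least 20% lower, 2 as reported, was 4 with the mean over probe sets, and 1 under a 75th percentile floor, with the pseudocount, and without the suffixes s_at and x_at. At 1.5-fold it was 0, as was the count of higher members, which was 1 under every other alternative. Loess centring gave 24 members lower and 13 higher. Flnc drops out at the 75th percentile floor and without the suffixes because its only bright probe set is then under the floor or left out. The signals carry no detection calls, so how far a dim probe set stood above its own background is not known.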
